A study of Mus musculus with 4 samples.

Results

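The 9 genes described here, Htr1a, Htr1b, Htr1d, Htr1f, Htr2a, Htr2c, Htr3a, Htr4 and Htr7, encode serotonin receptors of the mouse. They were taken by name from the 31053 genes counted in nuclei of 4 brain libraries. The files list 5 further serotonin receptor genes, which are described only as a list. Nuclei came from male mice of 8 weeks that had received an adeno-associated virus of serotype AAV9 at 4 weeks of age, injected into the cerebrospinal fluid at the cisterna magna. AAV-VEGF-C encoded the whole mouse protein VEGF-C, a growth factor of lymphatic vessels. Its control AAV-CTRL encoded a soluble fragment of VEGF receptor 3 that does not bind the ligand, fused to an immunoglobulin tail, so both viruses made a secreted protein and no group was left without virus. Tissue labelled cortex or striatum was pooled from 5 mice per virus, so each group is 1 library and the same mice gave both regions of a virus. The study asked how VEGF-C delivered to the cerebrospinal fluid changes gene expression of brain cells.

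Serotonin is released over most of the brain by neurons of the raphe nuclei of the brainstem, and each target cell reads it through the receptors it makes. Receptors of the 5-HT1 family couple to Gi/o proteins and lower cyclic AMP, 5-HT2 receptors couple to Gq and raise inositol phosphates and calcium, 5-HT4 and 5-HT7 couple to Gs and raise cyclic AMP, and the 5-HT3 receptor is a cation channel. The epithelium of the choroid plexus, which secretes cerebrospinal fluid and lies next to the fluid that received the virus, is known for a very high content of the 5-HT2C receptor.

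Values of the 4 libraries are given in a fixed order, the cortex label before the striatum label and AAV-CTRL before AAV-VEGF-C within each. They held 17168, 20370, 23724 and 17466 nuclei, of which 16125, 18826, 21322 and 16417 were kept after doublets were removed. Library pairs shared 76 to 118 cell barcodes, 0.443% to 0.658% of the smaller library. The kept nuclei had a median of 2124 to 2626 unique molecular identifiers (UMIs, each counting 1 captured transcript). The region labels went with Slc17a7, a gene of cortical and hippocampal excitatory neurons, at 422, 463, 59.1 and 42.4 CPM (UMIs per 1000000 UMIs of all genes), but against genes of the striatum. Ppp1r1b, a phosphoprotein of striatal projection neurons, gave 63.3, 76.2, 19 and 18.6 CPM and Drd2, the dopamine D2 receptor, 29.6, 35.3, 17.9 and 20.3, so both were higher under the cortex label. Slc17a6 and Tcf7l2, genes of thalamic and other subcortical excitatory neurons, gave 15.9, 15.9, 147 and 174 and 44, 41.2, 298 and 335 CPM. Each library is therefore called by its label, and a difference between region labels is one between dissections, not between cortex and striatum. Vegfc itself gave 12.4, 11.9, 13.1 and 12.1 CPM over whole libraries, and this RNA level did not separate the viruses. The paper measured more VEGF-C protein in cerebrospinal fluid and brain with AAV-VEGF-C, and reported higher Vegfc in smooth muscle cells.

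Nuclei were clustered without the serotonin receptor genes and named from marker genes. A name ends in "-like" because it is rebuilt and not the authors' own. There were 37 named classes, of which 35 held at least 100 nuclei and were ranked, and 24 clusters of neurons, with 22.8% of the nuclei, met no neuron type and are called by their leading genes. Oligodendrocyte-like nuclei, 10236 in all with a median of 1726 UMIs, are not known for most of these receptors, and the level in them is given beside each gene as its background, since free RNA enters every droplet. Each group is 1 library, so no test of the virus or the region label was run and no p-value is given. Intervals are exact, at 95%, cover counting error only, and describe these libraries. In a whole library, fewer nuclei of a type and fewer transcripts per nucleus cannot be told apart. Gene lengths ran from 4.48 kb (Htr1a) to 235 kb (Htr2c), and levels of different genes are not compared.

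**Figure D1:**
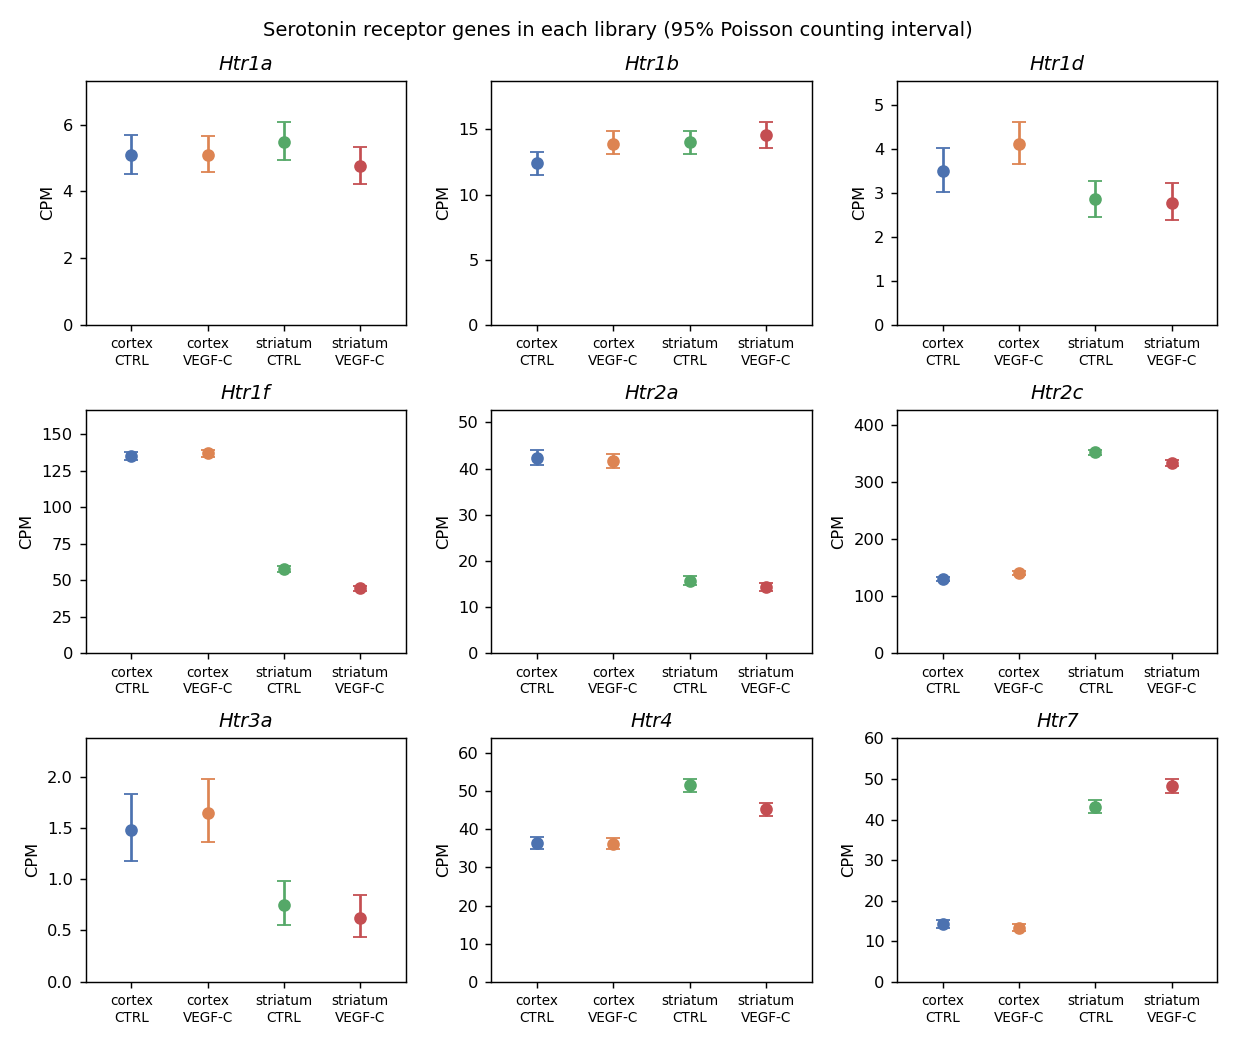
CPM of each gene (y axis, linear, from 0) in the 4 libraries (x axis) with 95% Poisson counting intervals; each point is 1 library. Htr1f and Htr2a lie higher in both libraries labelled cortex, Htr2c and Htr7 in both labelled striatum, and within a region the points of the viruses lie close together.

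Htr2c, the Gq-coupled 5-HT2C receptor, spans X:146962513-147197277 on the plus strand of GRCm38. Its introns hold 7 microRNA genes and Snora35, all on the same strand, and those genes give 11 mature microRNAs with 11 distinct seeds (bases 2 to 8). Counts of Htr2c transcripts do not measure these microRNAs, but their genes lie inside the transcribed unit whose level is described next. The mature sequences of 5 of them, each from another of these genes, are shown from RefSeq for GRCm38.p6 with the seed in capitals, to let a reader see that the hosted microRNAs share no seed with each other.
mmu-miR-764-5p: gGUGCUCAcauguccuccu
mmu-miR-1912-3p: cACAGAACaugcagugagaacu
mmu-miR-1264-3p: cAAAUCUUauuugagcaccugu
mmu-miR-1298-5p: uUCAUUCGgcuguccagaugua
mmu-miR-448-3p: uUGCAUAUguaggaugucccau
Their distances from the annotated start of Htr2c were 39773, 46981, 48143, 102406 and 195769 bases. Of the 1679 mature microRNAs of the table, no other had the seed of any of these 5.

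The Htr2c promoter window (chrX:146962263-146962512, plus strand, 250 bases that end just before the annotated gene start) is shown because this gene had the steepest difference between classes.
Htr2c promoter: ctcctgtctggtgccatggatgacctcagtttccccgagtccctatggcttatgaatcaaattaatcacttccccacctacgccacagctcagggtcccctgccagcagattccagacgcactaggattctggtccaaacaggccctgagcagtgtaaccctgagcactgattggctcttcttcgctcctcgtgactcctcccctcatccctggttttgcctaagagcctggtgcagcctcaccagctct
It held 5 CpG dinucleotides and was 55.6% G or C. It held on neither strand TAATCC (the core that Otx proteins bind), TATAAA or GGGCGG, which 6.25%, 12.4% and 32.7% of 32851 promoters of the same length held.

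Htr2c was at its highest by far in the choroid plexus-like nuclei. These 407 nuclei (92, 128, 118 and 69) had all 11 of the choroid plexus markers, with Ttr, the thyroid hormone carrier of the cerebrospinal fluid, at 49531 CPM against 111 CPM in the other nuclei. They gave 2134, 3135, 3783 and 1527 UMIs of Htr2c, or 7803 (7476 to 8142), 7284 (7031 to 7543), 8760 (8483 to 9044) and 6387 (6071 to 6716) CPM. Oligodendrocyte-like nuclei of the same libraries had 44.4, 37.9, 89.4 and 90.1 CPM, and the pooled levels were 7695 and 73.9 CPM. Htr2c took up 0.78%, 0.728%, 0.876% and 0.639% of all transcripts of these nuclei. Although the class made up only 0.571%, 0.68%, 0.553% and 0.42% of nuclei, it held 28.6%, 32.1%, 16.4% and 7.44% of each library's Htr2c UMIs. A UMI of Htr2c was seen in 87%, 86.7%, 85.6% and 78.3% of the choroid plexus-like nuclei, against 11.7% of oligodendrocyte-like nuclei; the median depths were 2529 and 1726 UMIs, and after every nucleus was thinned to 1000 UMIs the pooled shares were 84.2% and 6.87%. Ependymal-like nuclei, the other epithelium of the ventricles, had a UMI in 12.2%, 5.56%, 18.6% and 25.8%.

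The choroid plexus-like nuclei were not uniform. The median nucleus held 17.5, 19, 27 and 5 UMIs of Htr2c and the highest held 158, 120, 224 and 144. Of the 407 nuclei 121, or 29.7%, held at most 2 UMIs of it, in shares of 27.2%, 26.6%, 27.1% and 43.5%. These had a median of 1125 UMIs of all genes against 3002 in the rest, and lower levels of the choroid plexus genes Trpm3 (3864 against 13173 CPM) and Otx2 (105 against 280 CPM), whereas Ttr was at 39780 and 50917 CPM. The level of Htr2c in nuclei with at least 2000 UMIs, a limit set after the data were seen, was 8524, 7906, 9262 and 7351 CPM. Between the viruses the log2 ratio (AAV-VEGF-C over AAV-CTRL, the direction of all such ratios here) was -0.10 (-0.18 to -0.02) under the cortex label and -0.46 (-0.54 to -0.37) under the striatum label. The lower value of the striatum AAV-VEGF-C library came with the larger share of shallow, Htr2c-poor nuclei, whose part in it was not tested.

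**Figure D2:**
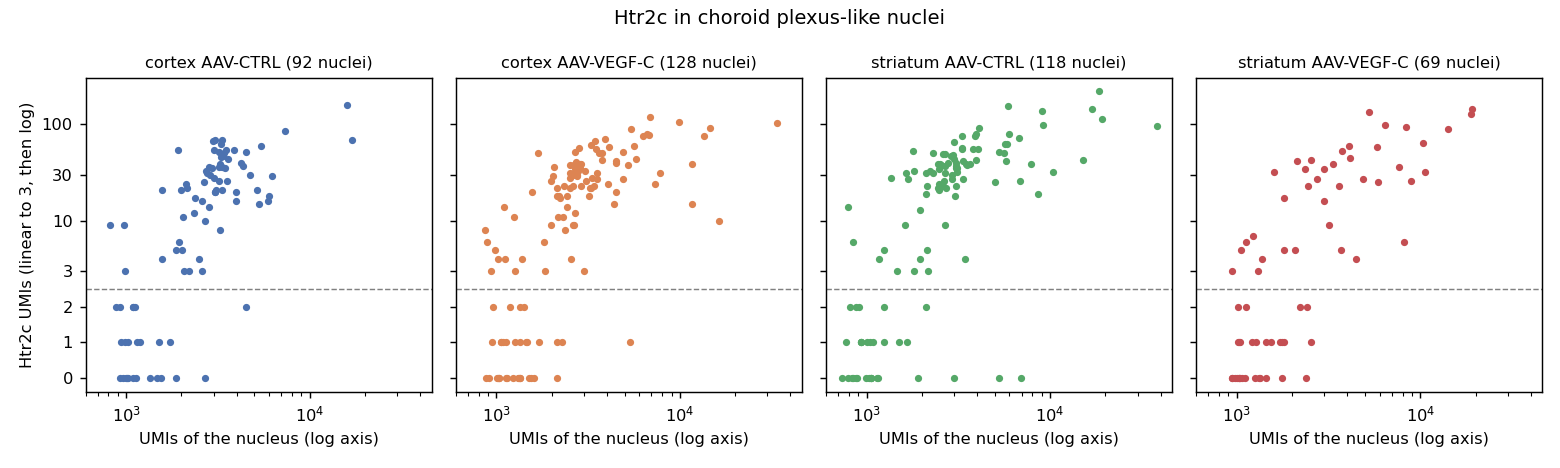
Htr2c UMIs (y axis, linear to 3 and then logarithmic) against the total UMIs of the nucleus (x axis, log scale) for each choroid plexus-like nucleus, 1 panel per library; the dashed line separates nuclei with at most 2 UMIs. The 121 nuclei under the line lie mostly at the shallow end, with a median of 1125 UMIs, and the striatum AAV-VEGF-C library has the largest share of them, 43.5%.

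Of the 9 genes, no other stood out in the choroid plexus-like nuclei. Htr1a, Htr1d and Htr3a gave 3, 3 and 1 UMIs over all 407 nuclei, and Htr1b, Htr2a and Htr7 gave 12, 7 and 15, or 8.73 (4.51 to 15.2), 5.09 (2.05 to 10.5) and 10.9 (6.11 to 18) CPM, against 12.6, 10.5 and 9.41 CPM in oligodendrocyte-like nuclei. Htr1f at 16 (10 to 24.2) and Htr4 at 11.6 (6.65 to 18.9) CPM lay above the 9.63 and 5.95 CPM of oligodendrocyte-like nuclei, on 22 and 16 UMIs.

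Among neurons Htr2c was broad. Unresolved neurons are outside the ranking, and some of their clusters lay above the highest ranked neuron class given next. The ranked classes that followed were subcortical glutamatergic-like at 573 CPM (265, 520, 561 and 587, from 9 nuclei in each of the first 2 libraries), habenular-like at 435 (519 and 352 in the libraries labelled striatum) and septal GABAergic-like at 406 CPM (562, 202, 405 and 421). The septal values under the cortex label came from 12 and 23 nuclei. The habenula and septum are relay stations of the limbic system. The lowest ranked class was upper-layer excitatory-like at 23.7 CPM, under the 73.9 CPM of oligodendrocyte-like nuclei. In the libraries labelled cortex, which held most of its nuclei, it had 21.2 and 19.7 CPM against 44.4 and 37.9 CPM. This background was thus not the same in every class. Genes whose class pattern was most like that of Htr2c were Hemk1, Miga1 and 4933408N05Rik, with Pearson r of 0.78, 0.71 and 0.71 over the 35 classes. These and the likenesses below are correlations of log2(CPM + 1) among 15241 genes with at least 500 UMIs; they are descriptions over classes that share libraries and depth.

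Htr2c also separated types of one lineage. In striatal projection neurons it was higher in D2-type SPN-like nuclei, of the indirect pathway, than in D1-type SPN-like nuclei, of the direct pathway, in all 4 libraries. The levels were 336 against 216, 291 against 216, 530 against 277 and 545 against 291 CPM, with log2 ratios (D2 over D1) of 0.63 (0.48 to 0.79), 0.43 (0.29 to 0.56), 0.94 (0.72 to 1.15) and 0.91 (0.69 to 1.13). Between the largest clusters of either class, led by Adora2a and by Sh3rf2 and Drd1, the ratios were 0.66, 0.49, 0.97 and 0.91. Both classes had higher Htr2c under the striatum label, as did oligodendrocyte-like nuclei. The Sst interneuron-like class joined a cluster led by Cort and Sst, with 75.5 CPM of Htr2c, and one led by Lhx8 and Lhx6 with Nos1 and Npy among its leading genes, with 412 CPM; the first held 252 and 294 of the nuclei under the cortex label, the second 120 and 110 of those under the striatum label. Likewise the claustrum and layer 6b excitatory-like class joined a cluster led by Ctgf and Cplx3, markers of layer 6b, with 35.1 and 36.7 CPM, and one led by Ntng2 with Nr4a2, a gene of the claustrum, with 195 and 274 CPM in the libraries labelled cortex.

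Htr2a (14:74640840-74709494, plus strand), the Gq-coupled receptor on which classical hallucinogens act, gave 2434, 2882, 1033 and 884 UMIs or 42.3, 41.6, 15.7 and 14.4 CPM. It was at its highest in claustrum and layer 6b excitatory-like nuclei at 138 CPM (132 and 143 in the libraries labelled cortex, where all but 2 of the 510 nuclei were). Lamp5 interneuron-like nuclei followed at 97.5 CPM (79.9, 111, 104 and 127) and layer 4/5 excitatory-like nuclei at 84.9 CPM (84.1, 85.9, 72.6 and 92.5). Under the striatum label these values rest on only 15 and 9 Lamp5 interneuron-like and 25 and 7 layer 4/5 excitatory-like nuclei. Oligodendrocyte-like nuclei had 10.5 CPM pooled, but 23.3, 17.7, 6.65 and 4.95 CPM by library. Unlike Htr2c, it was near equal in both claustrum and layer 6b clusters, with 120 (96.4 to 147) and 132 (110 to 156) CPM in the one led by Ctgf and 150 (119 to 185) and 156 (131 to 185) in the one led by Ntng2. Thalamic glutamatergic-like nuclei were the lowest class at 3.21 CPM. In D2-type over D1-type SPN-like nuclei the log2 ratio of Htr2a was above 0 in all 4 libraries, and its interval left out 0 in 1 of them, striatum AAV-CTRL, with 77.4 against 27.3 CPM and an interval of 0.85 to 2.17. Col19a1, Mpped1 and Serpini1 had the most similar class pattern (r of 0.74, 0.68 and 0.67).

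The 5-HT1 genes differed in the named classes that led them. These were layer 6 excitatory-like for Htr1f, SPN-like for Htr1b and Htr1d, and Sst interneuron-like for Htr1a, whose levels were close to background. Htr1f (16:64924729-65105854, minus strand), the target of the migraine drug lasmiditan, gave 7773, 9473, 3779 and 2734 UMIs or 135, 137, 57.5 and 44.4 CPM. Layer 6 excitatory-like nuclei led at 438 CPM (453 and 431 in the libraries labelled cortex), with UMIs in 83% and 77.2% of nuclei there, against 2.55% and 2.15% of oligodendrocyte-like nuclei. Eccentric SPN-like nuclei, a projection neuron type of the striatum apart from D1 and D2, followed at 415 CPM with 412, 394, 444 and 428 in the 4 libraries, and the intervals of these 2 classes overlapped. Claustrum and layer 6b excitatory-like nuclei followed at 285 CPM. Among unresolved neurons, those led by Frmd7, Lgr6 and Cpa6 (38, 12, 401 and 7 nuclei) had 414 CPM. One thalamic glutamatergic-like cluster of 150 nuclei, led by Fzd5, gave 421 (381 to 464) CPM, against 25.5 (22.9 to 28.2) in the largest thalamic cluster, led by Abhd12b. D2-type SPN-like nuclei were below D1-type in all 4 libraries, at log2 ratios of -0.36, -0.30, -0.16 and -0.33, with intervals that left out 0 in the libraries labelled cortex. Gabrg3, a GABA-A receptor subunit gene, Gm15810 and Sh3rf3 were most like it (r of 0.85, 0.82 and 0.81), and among the receptor genes themselves Htr2a was, at 0.60.

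Htr1b (9:81628291-81633828, minus strand), the autoreceptor and heteroreceptor on axon terminals and the target of triptans, gave 712, 967, 919 and 897 UMIs or 12.4, 13.9, 14 and 14.6 CPM. Its highest classes were D2-type SPN-like at 49 CPM (49.1, 50.9, 23.8 and 64.3) and D1-type SPN-like at 48.1 CPM (40.7, 53.8, 48.1 and 47.4), then septal GABAergic-like at 22.2 CPM, against 12.6 CPM in oligodendrocyte-like nuclei. The D2 over D1 log2 ratio spanned 0 in 3 libraries and was -1.02 (-1.91 to -0.20) in striatum AAV-CTRL, where D2-type nuclei gave 16 UMIs. The D1-type SPN-like cluster led by Drd3 and Gpr149, of 226 nuclei, gave only 8.13 (2.64 to 19) CPM on 5 UMIs. An antisense gene, D430036J16Rik, overlaps an exon of Htr1b. It was also the gene with the most similar class pattern (r of 0.76), ahead of Adcy5, the adenylyl cyclase of the striatum (0.73). The antisense gene was counted apart from Htr1b. Whether counting used strand is not given in the sources used here, so how reads of the overlap were assigned is not known.

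Htr1d (4:136423524-136444398, plus strand), another target of triptans, gave 201, 285, 187 and 171 UMIs or 3.5, 4.11, 2.85 and 2.78 CPM. In named classes it followed Htr1b (r of 0.65 over the 35 classes): D1-type SPN-like nuclei had 15.3 CPM (14, 16.1, 10.4 and 21.8), D2-type 14.5 (15.8, 15.3, 10.4 and 9.99) and serotonergic-like nuclei, a mixed cluster described further on, 8.36, against 2.06 CPM in oligodendrocyte-like nuclei. Its highest level lay outside the named classes, in 109 unresolved neurons led by Ptpn20, Slc38a3 and Fyb2, of which 52 and 56 were in the libraries labelled cortex. They gave 127 (93.1 to 170) and 79 (56.4 to 108) CPM there, and 54.1% of them held a UMI (10.1% after thinning). This cluster, 0.15% of nuclei, held 22.9% and 14% of the Htr1d UMIs of those libraries. It also had 93.3 CPM of Htr2a.

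Htr1a (13:105443639-105448122, plus strand), the somatodendritic autoreceptor of serotonin neurons and a postsynaptic receptor of hippocampus and septum, gave 292, 353, 361 and 293 UMIs or 5.08, 5.09, 5.49 and 4.76 CPM. Sst interneuron-like nuclei led at 12.9 CPM (9.87 to 16.5; 11.4, 13, 18 and 10.4 by library), then septal GABAergic-like at 12.6 (8.47 to 17.9) and subcortical GABAergic-like at 8.41 (5.2 to 12.8), all with overlapping intervals, against 4.92 CPM in oligodendrocyte-like nuclei. Outside the named classes, unresolved neurons led by Nrgn, Nptxr and Egr1 had 14.3 (9.32 to 20.9) CPM. Those led by Gm2115, Slc2a9 and Fibcd1 had 14 (10.4 to 18.6) CPM, and Fibcd1 is among the markers used here for hippocampal excitatory-like nuclei. Hippocampal excitatory-like nuclei themselves gave 8.27 (6.06 to 11) CPM. The pooled oligodendrocyte-like interval ran from 3.96 to 6.04 CPM. The pooled Sst and septal levels lay above it and the subcortical GABAergic-like level did not clear it. This comparison did not match libraries. Most Sst interneuron-like nuclei (316 and 365 of 923) were in the libraries labelled cortex, at 11.4 and 13 CPM against 7.52 and 5.59 CPM in oligodendrocyte-like nuclei there. Of the hippocampal nuclei most were in the libraries labelled cortex, at 8.06 (4.51 to 13.3) and 8.86 (5.41 to 13.7) CPM, where oligodendrocyte-like nuclei had 7.52 and 5.59 CPM, inside both intervals. Gm6999 was the most similar gene at an r of 0.66.

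Htr3a (9:48899213-48911099, minus strand), the obligatory subunit of the 5-HT3 channel and a known marker of interneurons from the caudal ganglionic eminence, was the sparsest of the 9 in UMIs. It gave 85, 114, 49 and 38 UMIs or 1.48, 1.64, 0.746 and 0.617 CPM. Vip interneuron-like nuclei had 53 (43.3 to 64.2) CPM, with 42, 55, 6 and 1 UMIs or 55.4, 53.1, 46.8 and 24.7 CPM by library, against 1.79, 1.55, 0.665 and 0.155 CPM in oligodendrocyte-like nuclei. They held 49.4% and 48.2% of the Htr3a UMIs of the libraries labelled cortex. A UMI was seen in 14.3% of Vip interneuron-like nuclei and in 0.147% of oligodendrocyte-like nuclei, at median depths of 3724 and 1726 UMIs (3.75% and 0.0304% after thinning). Neuroblast-like and Lamp5 interneuron-like nuclei followed at 7.59 (2.46 to 17.7) and 3.09 (0.843 to 7.92) CPM on 5 and 4 UMIs, and subcortical GABAergic-like nuclei had 0 UMIs in 534 nuclei, where 3 UMIs would give 1.2 CPM. Vip, the peptide gene that marks this class, Crh and Dlx1as were most like it (r of 0.78, 0.75 and 0.74). An antisense gene, Gm32335, overlaps an exon of Htr3a.

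The Gs-coupled receptors differed in place. Htr4 (18:62324204-62496577, plus strand) gave 2097, 2509, 3384 and 2785 UMIs or 36.5, 36.2, 51.5 and 45.2 CPM. Habenular-like nuclei had 225 CPM (220 and 229 under the striatum label), and hippocampal excitatory-like nuclei 223 CPM (236, 225, 219 and 183), which did not differ beyond counting error, then D1-type SPN-like nuclei with 125 CPM (120, 81.5, 206 and 201), against 5.95 CPM in oligodendrocyte-like nuclei. Within the D1-type class the cluster led by Drd3 and Gpr149, the dopamine D3 receptor gene being known from the islands of Calleja and ventral striatum, had 577 (474 to 696), 500 (363 to 671), 704 (591 to 834) and 547 (434 to 681) CPM. In no library did its interval reach down to that of the main D1 cluster. The main D1 cluster, led by Sh3rf2 and Drd1, had 87.5, 71.6, 116 and 145 CPM. The Drd3-led cluster held 70, 35, 75 and 46 nuclei and the main one 537, 695, 192 and 145, so the makeup of the D1-type class differed between libraries along with its level. These and the other splits of a class by cluster were chosen after the data were seen. The D2 over D1 log2 ratio of Htr4 was -0.15, 0.44, -0.74 and -0.83 with all clusters, and 0.42 (0.15 to 0.69), 0.74 (0.50 to 0.98), 0.08 (-0.37 to 0.52) and -0.45 (-0.90 to -0.01) between the largest cluster of each class. Layer 4/5 and upper-layer excitatory-like nuclei were the lowest, each at 3.97 CPM. Nkain3, Pigk and Caly were most like it (r of 0.79, 0.76 and 0.75).

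Htr7 (19:35958734-36057507, minus strand) gave 817, 925, 2832 and 2976 UMIs or 14.2, 13.3, 43.1 and 48.3 CPM. Septal GABAergic-like nuclei led at 119 CPM (121 and 120 under the striatum label), thalamic glutamatergic-like nuclei followed at 108 CPM (103 and 113) with an interval that overlapped, and Sst interneuron-like nuclei at 54.2 CPM (33.5, 31, 111 and 90.7), against 9.41 CPM in oligodendrocyte-like nuclei. The thalamic cluster led by Fzd5, which was also high in Htr1f, had 237 (198 to 282) and 257 (211 to 310) CPM, against 95.2 and 108 in the one led by Abhd12b and 54.4 and 74.7 in the one led by Prkcd. The Sst interneuron-like cluster led by Lhx8 gave levels of Htr7 of 42.2 (23.6 to 69.7), 34.8 (19 to 58.3), 115 (91.5 to 142) and 93.6 (73 to 118) CPM, which did not overlap between the region labels. In D2-type SPN-like nuclei it was at 17.5, 15.3, 11.9 and 21.4 CPM and in D1-type at 4.91, 2.11, 11.2 and 8.53, with intervals of the ratio above 0 in 3 of 4 libraries. Between the largest clusters the interval of striatum AAV-VEGF-C spanned 0 as well, at 1.01 (-0.36 to 2.44), which left both libraries labelled cortex. Hippocampal excitatory-like nuclei were the lowest at 3.06 CPM, where Htr4 was near its highest. Gm49333, Zfp941 and Cntnap5c were most like it (each with an r of 0.75).

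**Figure D3:**
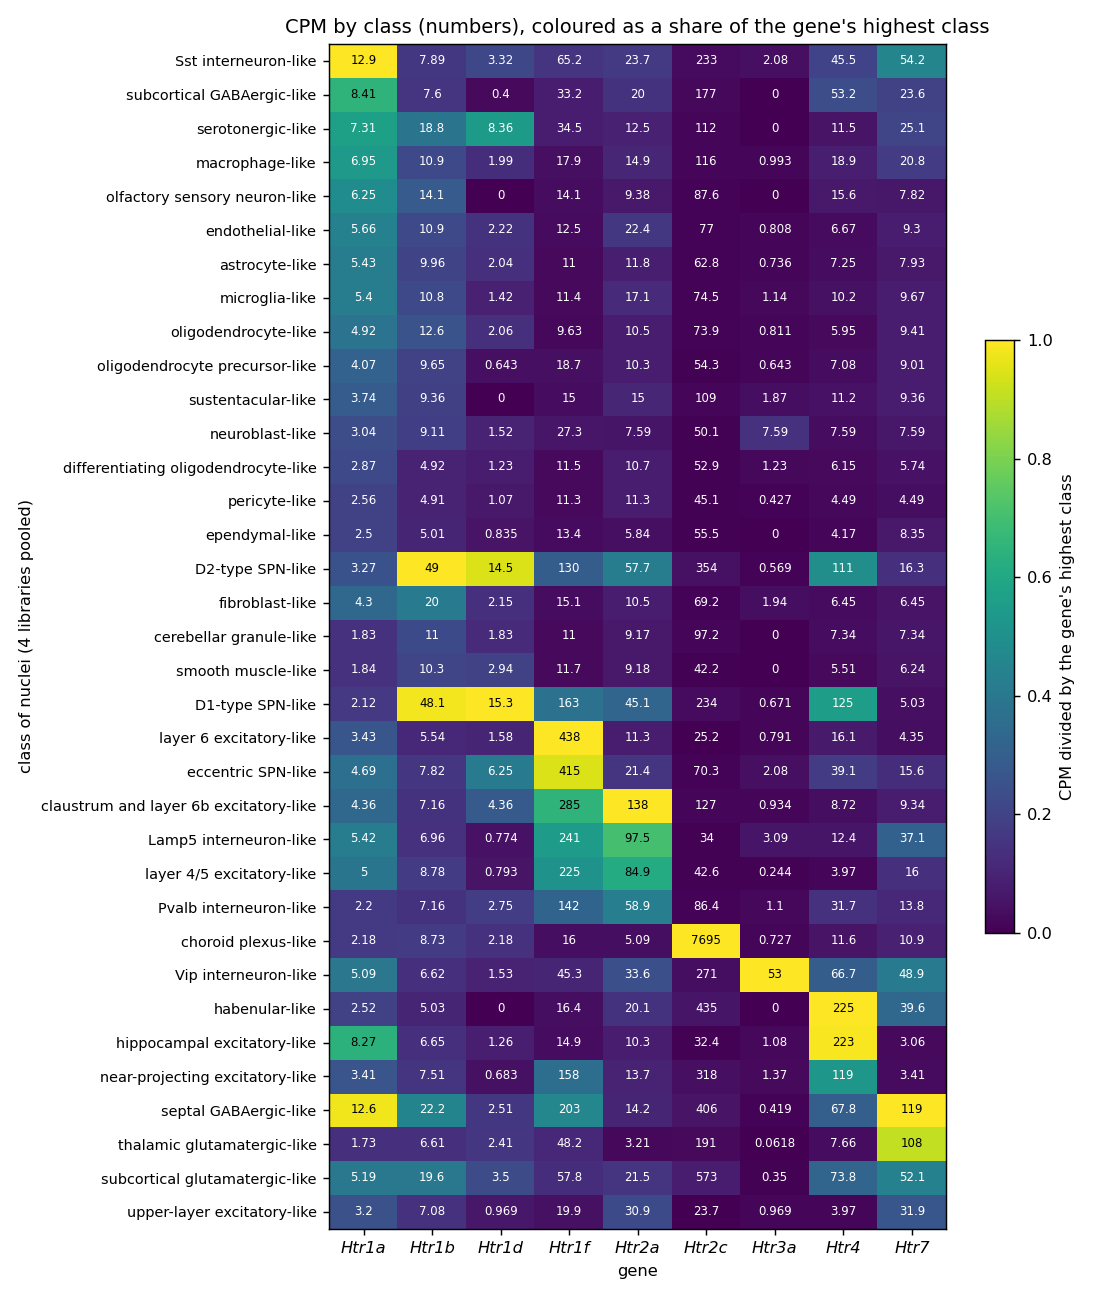
CPM of each gene (columns) in the 35 ranked classes (rows), 4 libraries pooled; the number is the CPM and the colour its share of the gene's highest class, on a linear scale from 0 to 1. Htr2c is at 7695 CPM in the choroid plexus-like row and at most 573 CPM in any other, Htr3a is at 53 CPM in the Vip interneuron-like row and at most 7.59 CPM in any other, and Htr1f and Htr4 are high in several neuron classes.

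Nuclei with transcripts of serotonin neurons were few. Tph2, the enzyme that commits neurons to serotonin synthesis, gave 0.748, 0.865, 9.76 and 13.7 CPM, the serotonin transporter gene Slc6a4 0.139, 0.101, 6.94 and 10.2 CPM, and Fev, a transcription factor of raphe neurons, 0, 2, 32 and 37 UMIs. The cluster led by Slc6a4 and Tph2, serotonergic-like, held 61 and 74 nuclei under the striatum label and none under the cortex label. Slc6a3, the dopamine transporter gene, was also among its leading genes, so the name does not hold for all its nuclei, and the cluster was split by transcript after it had been seen. The 35 nuclei with Tph2, Slc6a4 or Fev and no Slc6a3 gave 7 UMIs of Htr1a at 25.8 (10.4 to 53.1) CPM, 12 of Htr1b at 44.2 (22.8 to 77.2), 8 of Htr1d at 29.5 (12.7 to 58) and 22 of Htr1f at 81 (50.8 to 123). The 76 nuclei with Slc6a3 and none of these transcripts gave 0 UMIs of Htr1a and of Htr1d, with upper bounds of 6.78 CPM, 2 of Htr1b at 3.67 (0.445 to 13.3) and 7 of Htr1f at 12.9 (5.17 to 26.5). All 4 genes of Gi-coupled receptors were thus higher in the nuclei with serotonergic transcripts, with counting intervals that did not overlap. Htr7 went the other way, at 7.36 (0.892 to 26.6) and 34.9 (21 to 54.5) CPM, with intervals that overlapped, and Htr2c was at 99.4 and 101 CPM.

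Whole libraries of the 2 viruses lay within 1.5-fold of each other for every one of the 9 receptor genes. Under the cortex label the log2 ratios were 0.00 (-0.22 to 0.23) for Htr1a, 0.17 (0.03 to 0.31) for Htr1b, 0.23 (-0.03 to 0.50) for Htr1d and 0.02 (-0.03 to 0.06) for Htr1f. They were -0.03 (-0.10 to 0.05) for Htr2a, 0.12 (0.07 to 0.16) for Htr2c, 0.15 (-0.26 to 0.58) for Htr3a, -0.01 (-0.10 to 0.07) for Htr4 and -0.09 (-0.23 to 0.05) for Htr7. Under the striatum label Htr1f lay furthest from 0, at -0.37 (-0.44 to -0.30), followed by Htr3a at -0.27 (-0.92 to 0.37), Htr1a at -0.21 (-0.43 to 0.02), Htr4 at -0.19 (-0.26 to -0.11), Htr7 at 0.17 (0.09 to 0.24) and Htr2a at -0.13 (-0.26 to 0.00). Htr2c was at -0.08 (-0.10 to -0.05), Htr1b at 0.06 (-0.08 to 0.19) and Htr1d at -0.04 (-0.34 to 0.27). None of the 9 genes reached 1.5-fold in either pair of libraries, against 2.39% of the 18607 genes with at least 50 UMIs over both libraries under the cortex label (1.04% higher, 1.35% lower) and 4.43% of 19084 under the striatum label (1.89% higher, 2.54% lower). The medians over the 9 genes were 0.02 and -0.13, beside -0.00 and 0.00 over all genes tested. Beside the Htr1f value of the striatum label stands the number of Frmd7-led neurons, 401 nuclei with 12.1% of its UMIs in the AAV-CTRL library and 7 nuclei in the AAV-VEGF-C library. Olfactory sensory neuron-like nuclei (261 and 23) and sustentacular-like nuclei (236 and 10) were also fewer with AAV-VEGF-C, whereas unnamed nuclei (292 and 469) were more. Without the Frmd7-led neurons and these 3 groups the log2 ratio of Htr1f was -0.22. Htr2c without choroid plexus-like nuclei was 0.05 and 0.06 in the cortex and striatum labels.

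**Figure D4:**
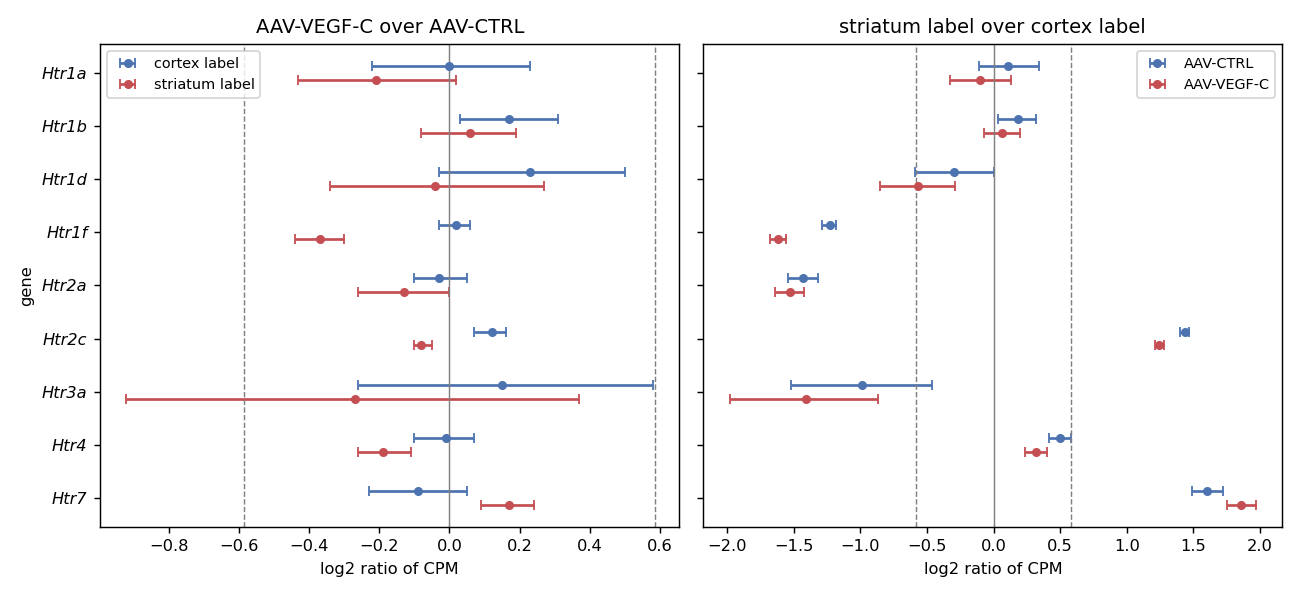
Log2 ratio of CPM (x axis) for each gene (y axis) with 95% counting intervals, between viruses on the left and between region labels on the right; colours mark the region label or the virus, and dashed lines mark 1.5-fold. On the left every point lies inside the dashed lines, and on the right Htr1f, Htr2a, Htr3a, Htr2c and Htr7 lie outside them for both viruses.

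Within classes, 76 pairs of gene and class could be compared under the cortex label and 70 under the striatum label (at least 50 UMIs over both libraries and 50 nuclei in each). Of these 9 (11.8%) and 8 (11.4%) passed 1.5-fold, 4 and 3 higher and 5 and 5 lower with AAV-VEGF-C, against 5.92% (3.42% higher, 2.51% lower) and 7.36% (3.77% and 3.58%) of the pairs of any gene and class. The share over all pairs was not matched to the receptor pairs in counts, and Htr2c alone gave 20 and 24 of the receptor pairs. The median log2 ratio of the receptor pairs was -0.07 and -0.05. The pairs past 1.5-fold whose interval left out 0 numbered 6 and 5, with under 150 UMIs in 4 and in all 5. Under the cortex label, Htr1f was lower with AAV-VEGF-C in Lamp5 interneuron-like nuclei, at 205 against 314 CPM (-0.62), and in astrocyte-like nuclei, at 13.1 against 20.9 (-0.67), where the oligodendrocyte-like level was 13 and 16.1. Both Htr2c (106 against 167 CPM, -0.66) and Htr4 (20.3 against 36.8, -0.86) were lower in Sst interneuron-like nuclei, and in the Lhx8-led cluster of that class they were at 243 (198 to 297) against 417 (352 to 490) and 37.3 (20.8 to 61.4) against 76 (50.1 to 111). Htr4 was higher in eccentric SPN-like nuclei, at 66.5 against 31.1 CPM (1.10). Htr1b was higher in layer 4/5 excitatory-like nuclei, at 10.7 against 6.66 CPM (0.68), under the 10.9 and 14.7 CPM of oligodendrocyte-like nuclei.

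Under the striatum label the largest was Htr1b in D2-type SPN-like nuclei, at 64.3 with AAV-VEGF-C (45 UMIs) against 23.8 CPM with AAV-CTRL (16 UMIs), a log2 ratio of 1.43. Under the cortex label the same pair stood at 50.9 against 49.1 CPM. Htr1f in Sst interneuron-like nuclei was at 38.9 against 68.1 CPM (-0.81). The other 3 were Htr2c in classes that are not neurons, differentiating oligodendrocyte-like (87.5 against 48.2 CPM, 0.86), macrophage-like (94.3 against 181, -0.94) and smooth muscle-like (37 against 65.9, -0.83). Oligodendrocyte-like nuclei had 90.1 and 89.4 CPM of it. Of the pairs named here, 5 had enough counts under both region labels, and none passed both limits in both. Htr4 in Sst interneuron-like nuclei was lower under the striatum label too, at 67.4 against 97.7 CPM (-0.54, -1.07 to -0.01). In the same class Htr2c turned sign under the striatum label, at 468 against 414 CPM (0.18, -0.04 to 0.40). Its level in the Lhx8-led cluster there was 483 against 431 CPM. Htr1f in this class turned sign under the cortex label, at 77.2 against 63 CPM (0.29, -0.10 to 0.69). Htr1f in astrocyte-like nuclei was at 6.08 against 6.77 CPM (-0.16, -0.94 to 0.61) under the striatum label.

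**Figure D5:**
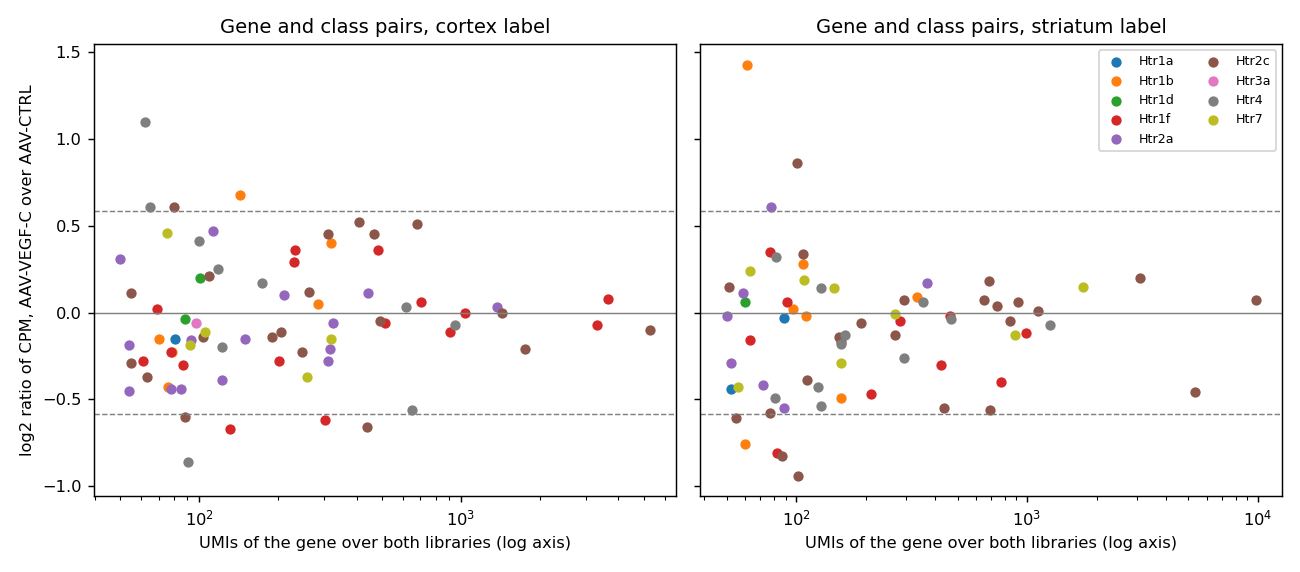
Each point is 1 gene in 1 class, placed by its UMIs over both libraries (x axis, log scale) and its log2 ratio of CPM between viruses (y axis), for the cortex label (76 pairs) and the striatum label (70 pairs); colours mark genes and dashed lines 1.5-fold. The 9 and 8 points outside the lines lie mostly at low counts, and points above 1000 UMIs lie within them.

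Between region labels more of the receptor genes differed. These ratios rest on the same 4 libraries as those between viruses. Striatum over cortex label, the log2 ratio with AAV-CTRL and with AAV-VEGF-C was 1.44 and 1.24 for Htr2c, 1.60 and 1.86 for Htr7, -1.23 and -1.62 for Htr1f, -1.43 and -1.53 for Htr2a and -0.99 and -1.41 for Htr3a. These 5 passed 1.5-fold with either virus, 2 higher and 3 lower, against 28.2% of all genes tested with AAV-CTRL (19.4% higher, 8.83% lower) and 28.4% with AAV-VEGF-C (19.7% and 8.74%). Htr4 was at 0.50 and 0.32, Htr1b at 0.18 and 0.06, Htr1a at 0.11 and -0.10 and Htr1d at -0.30 and -0.57. The medians were 0.11 and -0.10, beside 0.19 and 0.20 over all genes; relative to the median of all genes the ratio of Htr1b was -0.01 and -0.13 and that of Htr1a with AAV-CTRL -0.07, so that their direction turned, and Htr1d passed 1.5-fold as well with AAV-VEGF-C. The makeup of the libraries differed with the labels. The striatum AAV-CTRL library held 25 layer 4/5 and 13 layer 6 excitatory-like nuclei against 1177 and 635 in the cortex AAV-CTRL one, and thalamic glutamatergic-like nuclei numbered 2, 23, 1080 and 1043. Within classes with enough counts in both labels, 29 of 45 pairs with AAV-CTRL and 25 of 42 with AAV-VEGF-C passed 1.5-fold (64.4% and 59.5%). Of all pairs, which were not matched to these in counts, 17.6% (9.42% higher, 8.22% lower) and 17.2% (8.67% and 8.54%) did. Of the receptor pairs 20 and 18 were higher and 9 and 7 lower. Classes that are not neurons gave 19 of the 29 and 16 of the 25. In oligodendrocyte-like nuclei, the background used here, Htr1a (-0.64), Htr1f (-1.17), Htr2a (-1.81), Htr2c (1.01) and Htr7 (0.79) passed with AAV-CTRL. Htr2c alone gave 16 and 15 of these pairs and was above 0 in 16 and in 13, with medians of 1.13 and 1.25, glial classes included. The oligodendrocyte-like level of Htr2c moved the same way, from 44.4 to 89.4 CPM with AAV-CTRL and from 37.9 to 90.1 CPM with AAV-VEGF-C, and its part in these ratios was not tested.

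The other genes of serotonin signalling were read from 5 lists. None of the genes tested passed 1.5-fold, as 2.39% and 4.43% of all genes did, between the viruses under either region label: synthesis, transport and breakdown (10 and 12 tested of 13), the other receptor genes (4 and 4 of 5), G protein subunits (11), effectors such as phospholipase C and adenylyl cyclases (18) and receptor partners and editing enzymes (17). The list medians lay between -0.11 and 0.45. Tph2 and Slc6a4 came to 0.49 (0.34 to 0.64) and 0.55 (0.37 to 0.73) under the striatum label, where 16 and 19 nuclei of the split cluster held a serotonergic transcript without Slc6a3 and 3 and 5 held both. Between region labels 19.4% and 19.7% of all genes were higher and 8.83% and 8.74% lower. In the lists, 8 and 9 of 11 genes of synthesis, transport and breakdown were higher under the striatum label and 0 lower, 3 and 3 of 18 effectors were higher and 9 and 8 lower, and 0 of 4 other receptor genes were higher and 2 and 1 lower. Of 11 G protein subunits 1 and 2 were higher and 0 lower, and of 17 partners and editing enzymes 2 and 3 were higher and 3 and 4 lower.

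Few nuclei gave UMIs of more than 1 of the 9 genes at a shallow, equal depth. At that depth most genes present at low levels are missed in a nucleus, so the shares below do not measure how many of these genes a nucleus expressed. After thinning to 1000 UMIs 23.9% of nuclei held at least 1 and 2.95% at least 2. At least 1 was seen in 85% of choroid plexus-like, 46% of D2-type SPN-like, 45.7% of subcortical glutamatergic-like and 42.6% of D1-type SPN-like nuclei, against 11.9% of oligodendrocyte-like nuclei, and at least 2 in 4.36%, 9.1%, 6.82% and 9.32% against 0.506%.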

How the data were processed

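Nuclei were isolated from frozen tissue and profiled with droplet-based 3′ single-nucleus RNA-seq. The authors deposited raw UMI counts per gene and nucleus, made with Cell Ranger (5.0.1 per the file headers, 5.1.1 in the submitters' processing notes) on mm10. Whether intronic reads or strand were used is not given in the sources used here, and intronic counting would raise counts of long genes. Samples were grouped by label, 1 library per group, so no p-value was computed and no replicate spread exists.

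Total counts were 63165470, 78332657, 77253372 and 67773329 UMIs for the deposited libraries, in the order of the report. Scrublet as run in scanpy 1.11.5 (expected rate 8%) called 4.49%, 5.95%, 7.95% and 4.31% of nuclei doublets. These, 19 clusters with at least 40% called doublets and clusters under 20 nuclei were left out, together 1043, 1544, 2402 and 1049 nuclei. All libraries were clustered together on 5000 variable genes without the serotonin receptor genes (50 components, 15 neighbours, Leiden resolution 1.2), and neurons were clustered again. Classes were named from lists of markers, with at least 3 markers detected; the scoring rule was revised after clusters had been seen. The members and lists were chosen with earlier results of these data known.

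UMIs were summed per library and class and scaled to 1000000 (CPM). Levels have exact Poisson, shares Clopper-Pearson and ratios exact conditional binomial 95% intervals. A ratio was counted from 1.5-fold in genes with at least 50 UMIs over both libraries, and in classes with at least 50 nuclei in each. Named were the 3 highest classes per gene (at least 100 nuclei), pairs past 1.5-fold whose interval left out 0, the 3 genes most alike, and Tph2, Slc6a4 and Fev. For thinning to 1000 UMIs 634, 702, 1480 and 425 shallower nuclei were left out. The ratio step was tested on simulated library totals drawn as Poisson counts, the spread that its intervals assume. That checked the calculation and not the variation between nuclei or libraries. Gene coordinates are from GENCODE vM21 (GRCm38) and sequences from RefSeq tables. Python 3.11.15, scipy 1.17.1 and leidenalg 0.10.2 were used. The alternatives were all barcodes, another scaling, 2-fold, thinning, other clusterings and other count minimums. Values of 1 cluster of unresolved neurons are not reported here.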

Additional observations from a re-analysis of the deposited data

Results flagged for a closer look

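The log2 ratio of Htr2c between viruses had opposite signs under the 2 region labels, at 0.12 (0.07 to 0.16) for the cortex label and -0.08 (-0.10 to -0.05) for the striatum label, with counting intervals on either side of 0. The difference was not tested, since each group is 1 library. Without choroid plexus-like nuclei the ratios were 0.05 and 0.06, and in those nuclei alone they were -0.10 and -0.46. The choroid plexus-like nuclei were 0.571% and 0.68% of nuclei under the cortex label and 0.553% and 0.42% under the striatum label. That choice of nuclei was made after the data were seen.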

How the results depend on the processing

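No paired analysis was possible because each comparison sets 1 library against 1 and comes from no test; the region labels share mice within a virus, and each virus has its own ratio. No replicate could be left out from a group of 1 library. Of the main counts and levels 50 alternatives gave the same reading and 16 moved, and of the single ratios 145 and 35; none reversed a called value. Thinning brought 1 gene past 1.5-fold between viruses under the striatum label (Htr3a, -0.94), left 3 of 32 pairs there, kept 5 of 9 leading classes (Htr1b moved to D1-type SPN-like, Htr1d to serotonergic-like, Htr1f to eccentric SPN-like and Htr7 to thalamic glutamatergic-like; with libraries clustered apart 8 were kept and Htr1a moved to septal GABAergic-like), and put Htr2c of choroid plexus-like nuclei at 9822 and 5297 CPM in the striatum AAV-CTRL and AAV-VEGF-C libraries. Under the cortex label 7 of 36 pairs passed 1.5-fold after thinning. At 2-fold 1 pair was left under either region label, and at a minimum of 20 UMIs there were 29 of 122 and 20 of 101. The shares of all gene and class pairs at these settings are not given, so these counts have no background to be read against. In choroid plexus-like nuclei Htr2c was 6532 CPM with all barcodes and 7616 with libraries clustered apart in cortex AAV-VEGF-C, and 9522 with libraries clustered apart in striatum AAV-CTRL. In nuclei with at least 2000 UMIs, an alternative chosen after the data were seen, like those without groups of nuclei, it was 8524, 7906, 9262 and 7351 CPM. The causes were not tested. With all barcodes, called doublets of neuron clusters were not clustered again. Htr3a and Htr1a rest on few UMIs per class, so small differences in them were not detectable at this depth.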
